A study of Homo sapiens with 4 samples.

Results

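Peaks of N6-methyladenosine (m6A) at the 5′ end of protein-coding genes were examined in MDA-MB-231, a human cell line derived from a triple negative breast cancer. To be included, a peak had to lie wholly inside the RefSeq span of a protein-coding gene of the nuclear genome. Its midpoint had to lie in the first 10% of that span in the direction of transcription. It also had to hold 1 or 2 blocks (stretches of sequence parted by a gap, as a rule from splicing) and cover under 1000 bases. This gave 1894 peaks on 1584 genes. They were 11.9% of the 15944 peaks that could be placed in this way on 7799 genes (95% Wilson interval 11.4 to 12.4), out of 20261 peaks listed in all. The rule used position, blocks and length. It did not use the score of a peak, its strand or any sequence.

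The series held 4 libraries of poly(A) RNA, 2 of input RNA and 2 of immunoprecipitated (IP) RNA, all from cells labelled shNS. In m6A-seq the RNA is fragmented, fragments that bind an antibody to m6A are collected, and stretches of transcript with more reads in the IP than in the input are called as peaks. For both IP libraries the field on treatment names YTHDC1, while their titles and protocol describe an antibody to m6A, and the titles were followed. The list gives 1 value per peak over the libraries together, so no spread between replicates can be given, the read depth behind a peak is unknown, and no value below compares treatments.

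In mRNA, m6A is laid down by a nuclear methyltransferase complex built on METTL3 and METTL14, which acts on a short motif called DRACH. The mark is known to be dense in long internal exons and around the stop codon. Transcripts can also carry N6,2′-O-dimethyladenosine (m6Am) at their very first base when that base is an adenosine. This mark is made by PCIF1 next to the cap, and antibodies raised against m6A bind it too, so an antibody-based peak at a transcript start does not by itself tell the marks apart.

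The sequences at the gene start are shown first for the strongest peaks that began exactly at the first base of the RefSeq span. Over both strands together, genes with such peaks differed at this base from genes whose placed peaks all missed the rule. On the plus strand alone the intervals overlapped, and the 10 genes below are all on the minus strand. The 10 strongest peaks of this kind whose gene had a RefSeq promoter window beginning at the same base are given below (GRCh38.p14), each with 10 bases before the start and 20 bases from the start on. The capitals mark the annotated first base where it is A, together with the 2 bases before it where these read C, G or T and then C, a context called BCA.

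SLC1A5, chr19:46788575-46788604, minus strand: aaacgggcTCAgagccacgcggcacgcccg
ZNHIT6, chr1:85708414-85708443, minus strand: cgattcgaGCAgtcgcgtcaagcaggctat
YBX3, chr12:10723304-10723333, minus strand: tttttgggGCAgtaagatcgagcgaggagc
ARPC5, chr1:183635764-183635793, minus strand: gagccgcgGCAgtcggcgacgcctcagagc
ZNF622, chr5:16465781-16465810, minus strand: aagtttccTCAgtgacaatcaggaagtcgg
OAZ2, chr15:64703262-64703291, minus strand: gggtggggctAtgcagatgaggcactcggg
CCN2, chr6:131951353-131951382, minus strand: ccccaaacTCAcacaacaactcttccccgc
PLEKHH3, chr17:42676975-42677004, minus strand: ccagcgcgCCAgtcccggggctgcagggag
RASD1, chr17:17496376-17496405, minus strand: cgccaaagCCAgagcaagcggcctgtgccc
DDX41, chr5:177516942-177516971, minus strand: cgtggcgcGCAtgcgtgcagcaaagaatgg

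All 10 of these genes started with A, and 9 of the 10 held BCA, with OAZ2 as the exception. They encode proteins of varied roles, among them a glutamine transporter (SLC1A5), a cold shock domain protein that binds nucleic acids (YBX3), a subunit of the actin-nucleating Arp2/3 complex (ARPC5), an antizyme that controls polyamine synthesis (OAZ2) and a matricellular protein induced by TGF-β (CCN2). The −log10 score of their peaks ran from 135 for DDX41 through 156 for CCN2, 178 for OAZ2, 238 for ZNF622, 260 for ARPC5 and 317 for YBX3 to the ceiling of 323 for SLC1A5 and ZNHIT6, whose scores were listed as 0. Scores are taken to be p-values from the authors' peak caller, so a higher −log10 score means stronger evidence of enrichment, and it can grow with read depth and peak length as well as with enrichment.

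The first base was then read for every gene with a peak from the first base and a window. There were 374 such peaks on 374 genes, and 289 of these genes (77.3%) had a RefSeq window that began at the 5′ end of the span. Because fewer than 80% had a window, the comparison is void as a check of all 374 and describes those with a window. The first base was A in 189 of the 289 (65.4%, interval 59.7 to 70.6), against 50.9% of all 13819 protein-coding windows (50.1 to 51.8). It was A in 46.4% of 4359 genes whose placed peaks all missed the rule (44.9 to 47.8). These are called genes with peaks only elsewhere. They can still hold a peak near the start that missed the rule by crossing the 5′ end, or by its blocks or length. The context BCA was found in 46.0% of the 289 (40.4 to 51.8), against 33.9% of all windows and 32.8% of genes with peaks only elsewhere. The intervals of the first group did not overlap those of the others for either feature.

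The share fell away from the first base. Where a 5′ end peak reached into the first 50 bases without covering the first, 52.8% of 176 genes started with A (45.5 to 60.1), an interval that overlaps that of the first group. Where the 5′ end peak lay farther in, the share was 48.0% of 687 genes (44.3 to 51.8). A peak can begin at the first base where the gene model of the authors' peak caller and the RefSeq span start at the same base. Such a shared start need not hold for the other genes, and it was not checked for any gene. Peaks that began a whole multiple of 30 bases in, the step of the peak borders in these data, were taken as a group in which the models are more likely to share their start. Of 172 such genes 51.2% started with A (43.7 to 58.5) and 35.5% held BCA (28.7 to 42.9), both near the values of all windows. Their interval did not overlap that of the genes with a peak from the first base for A, and it did for BCA.

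Among peaks from the first base, the shares were higher for stronger peaks, within the counting error. With a −log10 score of at least 20, 72.7% of 77 genes started with A (61.9 to 81.4) and 57.1% held BCA (46.0 to 67.6). With a score above the median of the whole list, the shares were 63.4% and 39.0% of 123 genes (54.6 to 71.4 and 30.9 to 47.9), so the intervals of weak and strong peaks overlapped for both features. By strand, 67.9% of 224 minus-strand genes (61.5 to 73.6) and 56.9% of 65 plus-strand genes (44.8 to 68.2) started with A. The corresponding shares among genes with peaks only elsewhere were 47.6% (45.7 to 49.4) and 44.3% (41.8 to 46.7). BCA was held by 48.7% of the minus-strand genes (42.2 to 55.2), against 33.6% elsewhere (31.9 to 35.4), and by 36.9% of the plus-strand genes (26.2 to 49.1), against 31.4% elsewhere (29.2 to 33.7). Hence the intervals were apart on the minus strand and overlapped on the plus strand for both features.

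**Figure D1:**
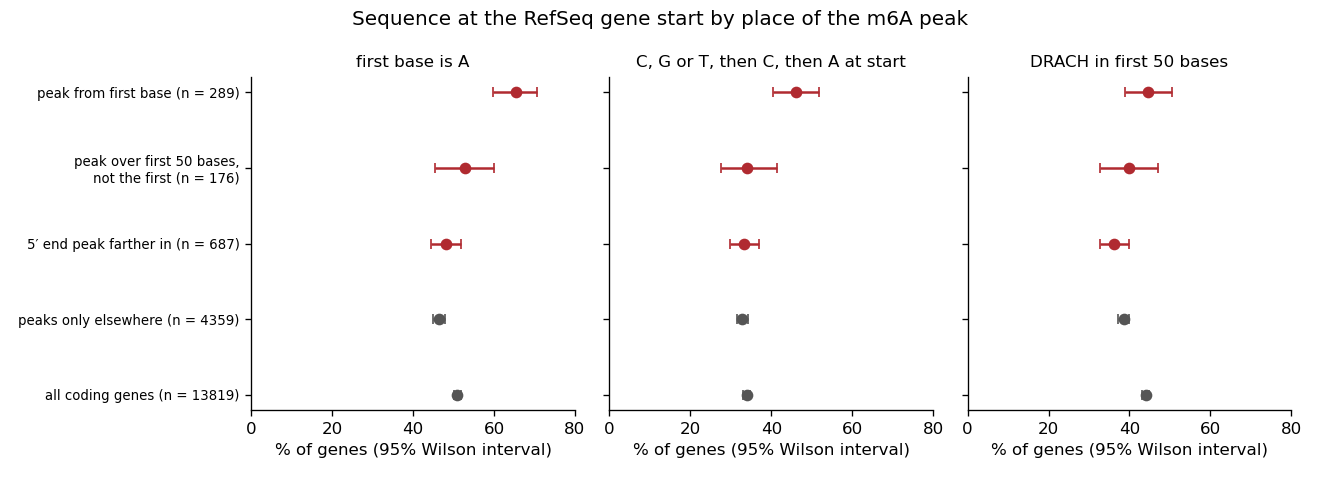
Share of genes, in percent, whose RefSeq sequence starts with A, holds BCA at the start, or holds DRACH in the first 50 bases, by where the m6A peak of the gene lies. Points are shares and bars are 95% Wilson intervals, with n genes beside each group. Genes with peaks only elsewhere have placed peaks, none of which met the rule. Genes with a peak from the first base have the highest shares for the first base A (65.4%) and for BCA (46.0%). Where a peak reaches into the first 50 bases without covering the first, the shares are 52.8% (45.5 to 60.1) and 34.1% (27.5 to 41.4). These intervals overlap those of the genes with a peak from the first base, and those of the remaining groups do not. For DRACH the share over both strands is 44.6% against 44.0% of all windows, with 60.0% on the plus and 40.2% on the minus strand.

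The m6A motif DRACH (A, G or T, then A or G, then A, then C, then A, C or T) was searched in the first 50 bases. It was found on the transcript strand in 44.6% of the 289 genes with a peak from the first base (39.0 to 50.4), in 44.0% of all windows and in 38.5% of genes with peaks only elsewhere (37.1 to 40.0). On the reverse strand, the shares were 40.8%, 47.6% and 43.8%. The shorter motif GGAC, which lies within DRACH when followed by A, C or T, was found on the transcript strand in 22.1%, 19.7% and 19.98%. The strands differed here. On the plus strand 60.0% of the 65 genes with a peak from the first base held DRACH on the transcript strand (47.9 to 71.0). This interval was clear of all windows and of the 38.6% of plus-strand genes with peaks only elsewhere (36.2 to 41.0). For the reverse strand of the same 65 genes the share was 50.8% (38.9 to 62.5), beside 42.1% elsewhere (39.6 to 44.5). The intervals of the transcript and reverse strands of the 65 genes overlapped. On the minus strand the share was 40.2% of 224 genes (34.0 to 46.7), beside 38.5% of those with peaks only elsewhere (36.7 to 40.3). The median GC content of these bases was 66.0% for genes with a peak from the first base, 64.0% for all windows and 68.0% for genes with peaks only elsewhere.

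Examples of such matches are shown for the strong peaks nearest the start, with the first DRACH match in capitals. The positions of the capitals' adenosine, counted from 1 at the first base of the span, are 42 in SLC1A5, 5 in ZNF622 (a zinc finger protein of ribosome biogenesis) and 30 in CCN2. All 3 matches lie inside the block of the peak that begins at the start.

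SLC1A5, chr19:46788545-46788574, minus strand: ggaggctttctctggctggTAACCgctact
ZNF622, chr5:16465771-16465800, minus strand: agTGACAatcaggaagtcggcgtgtcgagt
CCN2, chr6:131951328-131951357, minus strand: cccgctgagaggAGACAgccagtgcgactc

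The 1894 peaks, taken over both strands, had weaker scores than peaks elsewhere in genes. Their median −log10 score was 5.38 (quartiles 3.42 to 12.9). For peaks with the same limits on blocks and length, it was 7.35 in the middle 80% of the span (4.00 to 24.4, 7143 peaks on 4347 genes) and 8.15 in the last 10% (4.10 to 29.5, 5742 peaks on 4029 genes). Peaks are called strong here when their score does not exceed 5.2e-08, the median of the list. Of the 5′ end peaks 748 were strong (39.5%, 37.3 to 41.7), against 52.9% of all placed peaks, 50.3% in the middle of the span and 53.3% in the last 10%. The share with a −log10 score of at least 20 was 18.1% at the 5′ end, 28.6% in the middle and 31.2% in the last 10%. On the minus strand these shares were 21.7%, 35.7% and 39.5%. On the plus strand they were 9.63%, 11.3% and 9.31%, with overlapping intervals. A score listed as 0 was held by 11 of the 1894 5′ end peaks, 142 of 7143 in the middle and 127 of 5742 in the last 10%.

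The 5′ end peaks were also shorter, with a median of 180 bases against 211 bases in both other groups. Split by length, they differed little from the rest while short. The median −log10 scores for peaks of up to 150 bases were 3.20 at the 5′ end, 3.27 in the middle and 3.26 in the last 10%. For peaks over 150 and up to 240 bases they were 5.49, 5.73 and 5.89. For peaks over 240 bases they were 18.0, 25.9 and 30.8, so the gap was widest among long peaks. Expression and read coverage along the transcript were not measured here, and their part in these differences was not tested.

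**Figure D2:**
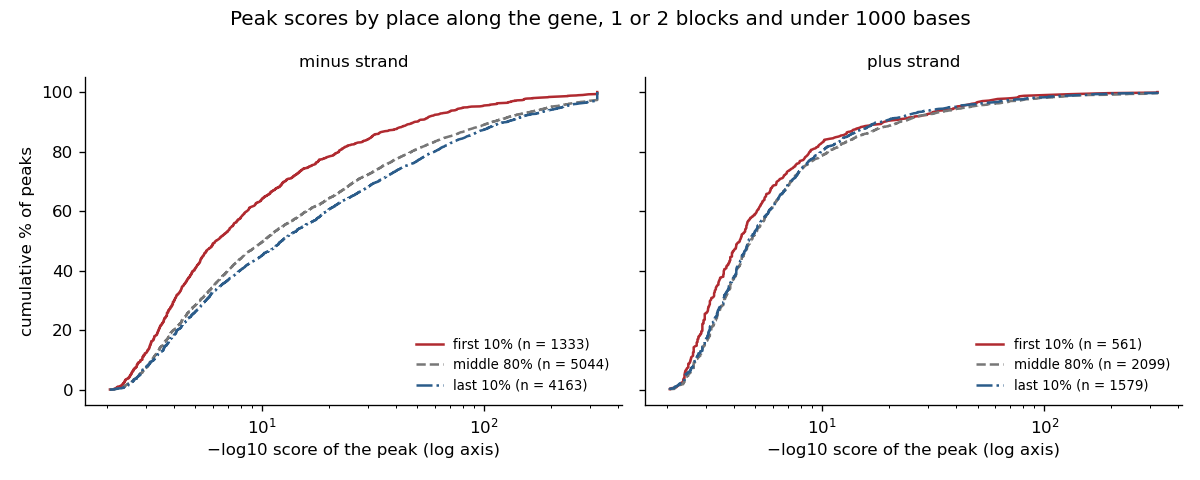
Cumulative percent of peaks (y axis) against the −log10 score (x axis, log scale) for the first 10%, the middle 80% and the last 10% of the gene span, by strand, all with 1 or 2 blocks and under 1000 bases. On the minus strand the curve of the 5′ end peaks (median 6.20) lies left of the middle (10.2) and the last 10% (12.2), whereas on the plus strand the medians are close, 4.26, 4.77 and 4.66.

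Peaks lay on the minus strand far more often than genes do. Of the 1894 peaks 1333 were on the minus strand (70.4%, 68.3 to 72.4), as were 70.6% of peaks in the middle of the span and 72.5% of those in the last 10%, while 48.9% of all protein-coding windows were on it. The excess was thus a feature of the whole list and not of the 5′ end. More 5′ end peaks were on the minus strand on all 23 chromosomes that held any, from 50.7% on chromosome 16 to 85.4% on chromosome 22.

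The strands differed in strength too. The median −log10 score was 6.20 on the minus strand (3.72 to 16.3) and 4.26 on the plus strand (2.96 to 7.55), and the median lengths were 181 and 151 bases. On the minus strand 45.2% of peaks were strong, and on the plus strand 25.8%. Among strong 5′ end peaks 80.6% were on the minus strand, against 63.7% of the weaker ones. The library kit is a stranded one per the labels, and what in the preparation or the processing goes with the strand was not tested.

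Overlap with a peak on the opposite strand was found for 140 of the 5′ end peaks (7.39%, 6.30 to 8.66), 9.80% of those on the plus strand and 6.38% of those on the minus strand. For some of these pairs the scores lay close together. The peak of DUSP6, a phosphatase that turns off ERK, had a −log10 score of 35.8 over 151 bases, all of which lay in a peak of ENSG00000274021 on the other strand with a score of 1.6e-35. The long peak of PCDH7, a protocadherin, and that of ENSG00000286596 shared 681 bases and the same score of 3.2e-06. The peak of SLC1A5, the longest of the 11 listed at 0, shared 780 bases with ENSG00000275719, also listed at 0. In such pairs the transcript that carried the mark cannot be told apart from the list alone.

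Most 5′ end peaks began close to the start. The nearest base lay at a median of 225 bases from the 5′ end of the span (26.0 to 807), measured along the genome with introns included. The first base itself was covered by 374 (19.7%, 18.0 to 21.6), 752 had a base within 100 bases (39.7%), 1238 within 500 bases (65.4%, 63.2 to 67.5) and 1498 within 1000 bases (79.1%). The other 396 (20.9%) lay farther in, 89 of them by more than 5000 bases (4.70%), and the farthest was 63491 bases in, in PDE10A, which encodes a cyclic nucleotide phosphodiesterase.

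The distance followed the size of the gene, as the rule sets a limit in percent of the span. The median distance was 11.5 bases in genes spanning up to 5000 bases (138 peaks) and 569 bases in genes spanning more than 100000 bases (425 peaks). The median distance was 217 bases on the minus and 239 bases on the plus strand, while both extremes were more common on the minus strand. The first base was covered by 21.5% of minus-strand peaks (19.3 to 23.7) and 15.7% of plus-strand peaks (12.9 to 18.9). More than 5000 bases in lay 5.63% of minus-strand peaks (4.51 to 7.00) and 2.50% of plus-strand peaks (1.49 to 4.14).

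**Figure D3:**
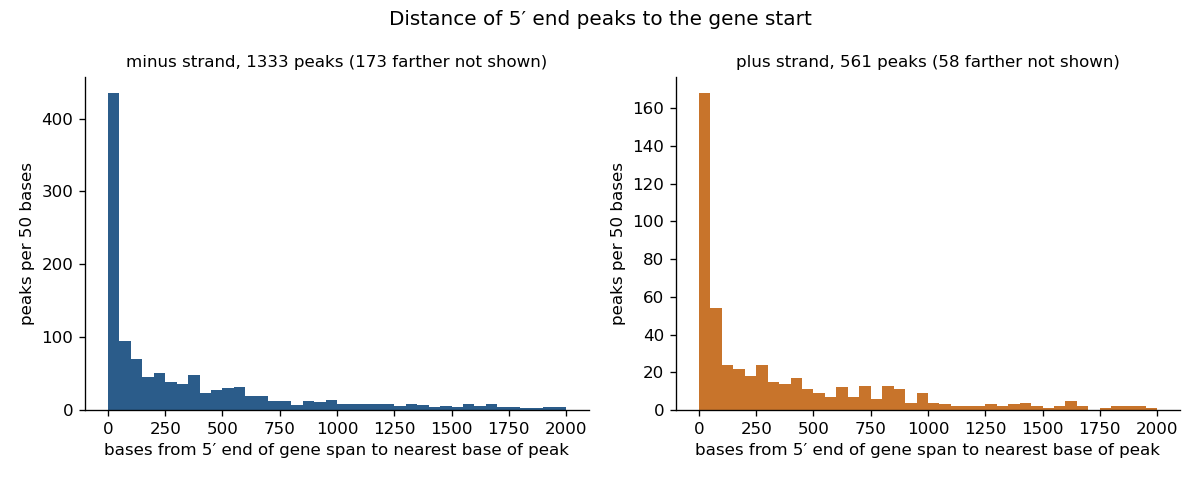
Number of 5′ end peaks per 50 bases (y axis, scaled separately for each strand) by the distance in bases from the 5′ end of the gene span to the nearest base of the peak (x axis, up to 2000 bases). On both strands the first bin is by far the highest, and 65.4% of all 5′ end peaks lie within 500 bases.

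Peaks from the first base were the strongest by distance. Their median −log10 score was 8.75 (4.26 to 21.9), and 57.0% were strong. Peaks that began 1 to 100 bases in were the weakest, with a median of 4.31 (3.05 to 7.45) and 25.9% strong. The medians then were 4.98 at 101 to 500 bases, 5.51 at 501 to 1000 bases, 5.27 at 1001 to 5000 bases and 5.34 beyond. The order held on each strand for the first 2 classes, with medians of 10.2 and 4.68 on the minus strand and 6.68 and 3.92 on the plus strand. The quartiles of all classes overlapped.

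The place of peaks relative to the first exon was read from their blocks, since a map of exons and UTRs was not used here. Of the 1894 peaks 298 (15.7%, 14.2 to 17.4) had 2 blocks, 213 on the minus and 85 on the plus strand. The gap between the blocks had a median of 560.5 bases (170.5 to 1920). The shortest was 2 bases, so not every gap can be read as an intron. The end of the block nearest the start lay at a median of 348 bases from the start (148 to 786). It need not be the end of the first exon. In 47 peaks that began at the first base and had 2 blocks, the block nearest the start had a median of 147 bases (95.5 to 228). Where the gap is an intron and both models share their start, this block ends where the first exon of the caller's model ends. ZNF622 is of this kind, with a block of 760 bases at the start and a second of 199 bases, and so are PLEKHA4, with 535 and 35 bases, and ARPC5, with 267 and 34 bases.

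RefSeq and the caller's models did not always share their start. A further 645 peaks on 644 genes met the limits on blocks and length but crossed the 5′ end of the RefSeq span, by a median of 35 bases (18.0 to 77.0), and 178 lay wholly upstream of it. None was counted as a 5′ end peak. The crossing peaks had a median −log10 score of 7.30, above the 5.38 of the 5′ end peaks, and 71.6% were on the minus strand. Hence the set counted here leaves out many peaks that lie at a transcript start.

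Within genes, the 5′ end peak was usually not the strongest. In 497 of the 1584 genes (31.4%) the 5′ end peaks were the only placed peaks. Among the other 1087, a 5′ end peak was the strongest in 258 (23.7%, 21.3 to 26.4). That was more often so on the plus strand (38.8% of 224 genes) than on the minus strand (19.8% of 863 genes). The 1087 genes had a median of 2 other placed peaks (1 to 2, at most 13), taken without the limits on blocks and length. The share depends on that number, which was not compared by strand. In 617 genes that also had a peak in the last 10%, the strongest 5′ end peak had a median −log10 score of 6.49 and the strongest peak of the last 10% 26.8. The peak of the last 10% was the stronger in 443 genes (71.8%, 68.1 to 75.2) and the 5′ end peak in 173 (28.0%), with 1 tie. Peaks of the last 10% were taken here without the limits on blocks and length, so the sides are not fully alike.

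This comparison sets peaks of the same gene side by side. The expression of a gene can still act on the size of the difference and on whether both peaks are listed. Coverage can also vary along a transcript, and neither was tested. Each side is the strongest of its peaks in a gene, and the numbers of peaks were not matched. By strand, the 5′ end peak was the stronger in 42 of 91 plus-strand genes (46.2%, 36.3 to 56.3) and in 131 of 526 minus-strand genes (24.9%, 21.4 to 28.8). The median scores were 5.85 against 7.46 on the plus strand and 6.89 against 34.5 on the minus strand. The strands thus differed mostly in the score of the peak of the last 10%. In 218 genes with exactly 2 placed peaks, 1 at each end, the 5′ end peak was the stronger in 70 (32.1%, 26.3 to 38.6). There too, the limits on blocks and length held for the 5′ end peak only.

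**Figure D4:**
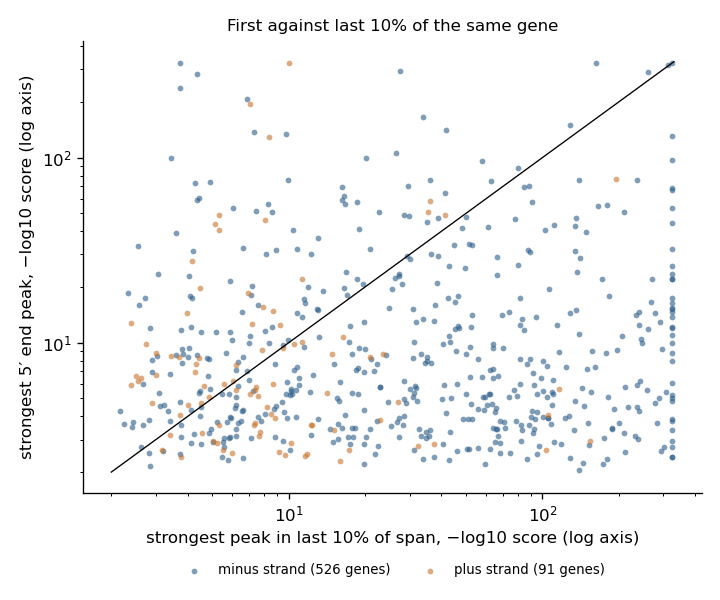
The −log10 score of the strongest 5′ end peak (y axis) against that of the strongest peak in the last 10% of the same gene (x axis), both on log scales, for 526 minus-strand and 91 plus-strand genes, 1 point per gene. The line marks equal scores, and 443 of the 617 genes lie below it. The limits on blocks and length hold for the 5′ end peak only.

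The 10 strongest 5′ end peaks, all with a score listed as 0 and ordered by length, were in SLC1A5, TGFB1, THAP4, ZNHIT6, OBSL1, TMEM223, TRIM44, HNRNPA0, DSE and TIMP2. TGFB1 encodes the ligand TGF-β1, and its peak covered 955 bases in 1 block from 89 to 1043 bases from the start (chr19:41352879-41353833). It was the only placed peak of the gene. ZNHIT6, an assembly factor of small nucleolar RNPs, had a peak of 810 bases from the first base over a splice border, and it too was the only one of its gene. The peak of TIMP2, an inhibitor of metalloproteinases, ran over the first 331 bases (chr17:78925057-78925387) and was the strongest of 3.

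TRIM44 and DSE were on the plus strand and the other 8 on the minus strand. The TRIM44 peak covered 451 bases from 510 bases in and was the only placed peak of its gene. In DSE, which encodes an epimerase of dermatan sulfate synthesis, the second block of 298 bases lay wholly in a peak of TSPYL1 on the other strand, also listed at 0. HNRNPA0, an hnRNP that binds AU-rich elements, had its peak of 391 bases 269 bases in, the strongest of 3. The 11th peak with a score of 0 covered the first 300 bases of FTH1, the heavy chain of ferritin, which stores iron.

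By gene list, 5′ end peaks were read against the 20.3% of all genes with a placed peak that had one. The lists and their members were put together with earlier results of these data known, and the first of them holds genes that the study chose, so their counts are no independent evidence. The share was 44.8% in the list of TGF-β pathway and study genes (13 of 29, interval 28.4 to 62.5), 36.8% in the m6A and m6Am machinery (7 of 19, 19.1 to 59.0) and 35.1% among receptors, kinases and feedback inhibitors (13 of 37, 21.8 to 51.2). It was 27.3% among chromatin regulators (12 of 44), 24.0% among RNA processing factors (6 of 25) and 8.33% among housekeeping genes (1 of 12, FTH1). Of the stress response genes 5 of 20 and of the immediate early and KLF factors 7 of 28 had such a peak. The interval left out 20.3% for the TGF-β list and for the receptor list, and it included it for the other 6.

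**Figure D5:**
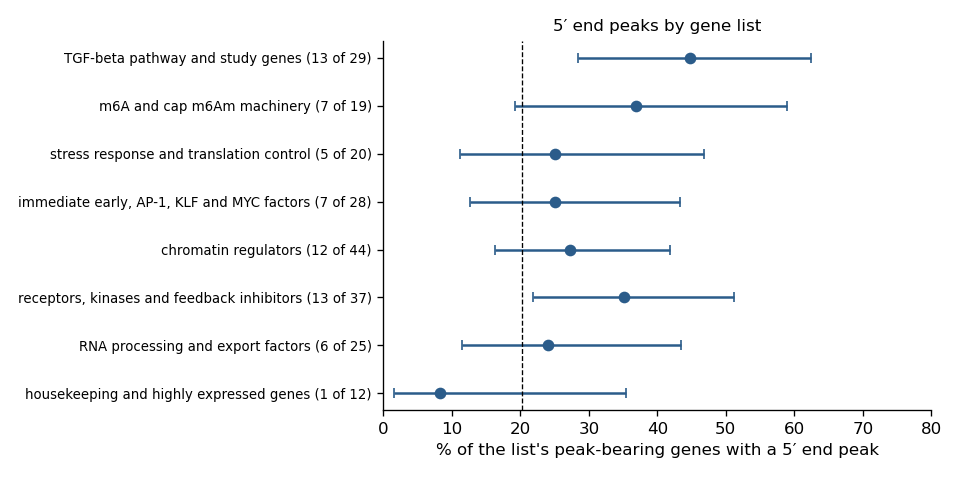
Percent of the genes with a placed peak in each list that have a 5′ end peak (x axis), with 95% Wilson intervals as bars and the counts beside each list. The dashed line is the 20.3% of all genes with a placed peak, which the intervals of 6 of the 8 lists include.

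Among the TGF-β genes, all 3 ligands had 5′ end peaks. That of TGFB1 is given above. TGFB2 had a peak over the first 241 bases with a −log10 score of 19.8 and a second at 5.80, and the TGFB3 peak, 2123 bases in, had a score of 7.66. Of the SMAD genes, which carry the signal from the receptor to the nucleus, the inhibitory SMAD6 had peaks at 13.6, from the first base, and at 58.1, 987 bases in. The other inhibitory member, SMAD7, had a peak of 630 bases at 30.1. SMAD1, which acts downstream of BMP receptors, had weaker peaks at 3.59 and 2.49.

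SMAD3, the receptor-activated SMAD that the study examined, had 4 listed peaks, and none was a 5′ end peak. The first ran from 67063913 to 67065810 on chromosome 15 in blocks of 32 and 209 bases, with a score of 7.4e-07. Its second block starts exactly where the span of the gene starts, and its first lay 1689 bases upstream, so it missed the rule for its upstream block alone. HPRT1, a housekeeping gene that the study also examined, had no listed peak.

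Regulators and targets of the pathway followed. SMURF2, a ubiquitin ligase that acts on the pathway, had a peak over its first 210 bases at 75.8, and that gene starts with A. The co-repressors SKI and SKIL had peaks at 5.59 and 4.22. Of the targets, CCN2 had the peak from the first base shown above, at 156, which shares 148 bases with a peak of ENSG00000227220 on the other strand. CCN1, its relative, had a peak over the first 150 bases at 12.9. ZEB1, a transcription factor of epithelial-mesenchymal transition, had a peak at 5.60 that shares 180 bases with one of ZEB1-AS1, and CLDN7, a tight junction protein, one at 30.3.

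In the m6A machinery, the eraser ALKBH5 had the strongest 5′ end peak, at a −log10 score of 18.6 and 467 bases in, with 207 bases shared with a peak on the other strand. The writer subunits RBM15 and RBM15B had peaks at 3.62 and 4.60. Among proteins that bind m6A or nearby RNA, HNRNPC had a peak at 14.2, IGF2BP3 at 10.9, YTHDF2 at 6.72 and HNRNPA2B1 at 3.52. None of the 7 genes had its peak at the first base, which 19.7% of all 5′ end peaks covered. The nearest was that of RBM15B at 90 bases in, and 7 peaks are too few to set against that share.

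Among receptors, kinases and feedback inhibitors, phosphatases that turn off MAP kinases held the strongest peaks. DUSP4 had a peak of 390 bases at 245, 239 bases in, and a weak one at 3.72 from the first base. DUSP1 had a peak at 50.5, DUSP6 at 35.8 from the first base, and DUSP10 at 32.7 and 5.77. CCND1 (cyclin D1) had a peak over the first 151 bases at 11.5, SPRED2 one at 10.0 and IGF1R one at 5.96. The Notch genes NOTCH1, at 5.26, and NOTCH3, at 3.72, had theirs from the first base, and JAG1, MTOR and FZD1 had peaks at 5.22, 5.25 and 4.13.

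Of the 7 peaks in 5 stress response genes 4 were strong, beside 39.5% of all 5′ end peaks. PPP1R15B, which directs dephosphorylation of eIF2α, had 3, at 266, 22.2 and 4.11, the weakest from the first base and the strongest 807 bases in. VEGFA, an angiogenic growth factor, had a peak of 840 bases at 51.1, and 134 of its bases lay in a peak on the other strand. The chaperone genes HSPH1 and BAG3 had peaks at 8.60 and 4.51. EIF4EBP1, a repressor of cap-dependent translation, had a peak over its first 148 bases at 7.00.

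Among immediate early and KLF factors, KLF9 had the strongest peaks, at 99.1 and 38.3, followed by IER5L, with a peak over the first 269 bases at 33.6. The others, in KLF2, KLF4, KLF7, SP1 and SP3, lay between 2.64 for SP3 and 5.96 for SP1, which had 3. Among RNA processing factors, XPO1, the nuclear export receptor, had a peak of 600 bases at 114 and HNRNPUL1 one at 49.3. ZFP36L2, which promotes mRNA decay, had a peak at 9.34, CNOT6, a deadenylase, one at 5.92, CPEB4 one at 4.96 and 3.85, and the splicing factor SRSF7 one at 4.04.

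Of the 16 peaks in the 12 chromatin regulators 5 were strong, beside 39.5% of all 5′ end peaks. The strongest was in ARID1A, a subunit of SWI/SNF, at 22.0, with another at 9.62. CHD4, a helicase of the NuRD complex, had a peak at 12.2, ARID1B 3 peaks from 4.55 to 9.13, and the histone methyltransferase NSD1 one at 7.57. The strongest ARID1B peak, of 361 bases, shares 347 bases with a peak of ENSG00000271551 on the other strand. Their scores were 7.4e-10 and 4.2e-10. KDM2B, a demethylase, had a peak at 6.82 and BPTF peaks at 6.70, from the first base, and 5.12. EZH2, KDM5A, ASXL1, ASXL2, CHD1 and EP400 had single peaks between 2.44 for EP400 and 4.89 for EZH2. That of KDM5A shares 18 bases with a peak of CCDC77 on the other strand.

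Most genes, 1354 of 1584, had a single 5′ end peak, 179 had 2 and 51 had 3 or more. The most, 6 each, were in PCDH10, PDE10A and POU3F3, and 5 each were in ARHGEF17, IRS2, MN1, PCDH7 and PCLO. POU3F3, a neural transcription factor, held all of its placed peaks there, with scores from 1.1e-07 down to 1e-30 between 542 and 4731 bases from the start. All 6 peaks of PCDH10, a protocadherin, lay there as well, and their scores were low, from 2.38 to 7.12. IRS2, an adaptor of the insulin receptor, had scores from 2.57 to 48.9 and MN1 from 5.25 to 23.5. In PCLO, a giant scaffold of the synapse with 17 placed peaks, the 5 peaks lay 6566 bases or more from the start, with scores from 2.74 to 13.8.

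The peaks just inside the limit of 10% of the span were those of DHX16, with a midpoint at 9.98% and a score of 5e-55, PARP6 (9.98%, 7.9e-20) and CCDC57 (9.99%, 5.1e-07). Just outside were ITGB5 (10.02%, 5e-25), YWHAZ (10.03%, 7.9e-05) and ESCO2 (10.05%, 0.0043). Of the 1976 peaks whose midpoints lay inside the limit, the other parts of the rule left out 63 peaks of 3 or more blocks and 21 of 1000 bases or more, 2 of them for both.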

How the data were processed

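A single peak list of the series was used, with 1 score per peak. Per the labels and the study's methods, the authors aligned the reads with STAR (hg38, GENCODE annotation), called peaks with exomePeak at default settings, and filtered them on fold enrichment and FDR. The deposited score was read as the p-value of that caller, and whether it is an FDR instead is not given in the sources used here. A score of 0 was set to a −log10 of 323. Peaks were placed by Ensembl ID, symbol and RefSeq span (GRCh38.p14), and start sequences came from RefSeq promoter windows of that build, with chromosome 8 left out of those printed. Exons and UTRs were not mapped, since distances and peak blocks alone were used here.

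Shares have 95% Wilson intervals, which cover counting error only and treat peaks as independent, and medians have quartiles. No chance test was run, because the list gives 1 value over all libraries and peaks are not replicates. Overlap means at least 1 shared base. Genes named are those with the 10 smallest scores, the most peaks, the 10 strong peaks nearest the start, those beside the 10% limit, list members (1 of them not reported here), SMAD3, HPRT1 and genes of printed sequences. RASD1, DDX41 and PLEKHH3 were added for their sequences after their values were seen. The 5′ end peaks, gene lists and comparisons were chosen with earlier results of these data known. Functions were tested on simulated data (Python 3.11.15, pandas 2.3.3, SciPy 1.17.1).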

Additional observations from a re-analysis of the deposited data

How the results depend on the processing

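The number of 5′ end peaks, 1894, was lowered to 748 by keeping strong peaks and stayed within 1.5 times under the other 9 alternatives. Strong peaks were on the minus strand in 80.6%, and their median −log10 score was 17.8. With the midpoint within 1000 bases of the start in place of the 10% limit, 68.2% were on the minus strand, the median distance was 134 bases and 80.3% had a base within 500 bases. Limits of 5% and 20% of the span gave median distances of 125.5 and 389 bases, shares within 500 bases of 72.4% and 54.7%, and median −log10 scores of 5.12 and 5.77. In genes of at least 10 kb, the median distance was 321 bases and 58.8% lay within 500 bases. With 1 block only, the median −log10 score was 5.16. These shifts in distance follow from the limits themselves. Without the separate block of peaks at the end of the list, or without peaks with an opposite-strand overlap, no value moved past its counting interval. For peaks from the first base, alternatives added after seeing the data gave 56.9% for the first base A and 36.9% for BCA on the plus strand (65 genes), against 65.4% and 46.0%, and moved neither elsewhere. Why the strands differ was not tested here.

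No paired analysis was possible because all libraries had been combined and no value of a single replicate is held, which also prevents leaving out replicates. The alternative based on exon and UTR models was not run, as no exon map was used here. Depth is unknown, so genes without a 5′ end peak cannot be told from genes with too few reads.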
